A study of Arabidopsis thaliana with 43 samples.

Results

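Arabidopsis thaliana has 9 ATG8 loci, ATG8A to ATG8I, and 1 NBR1 locus. These 10 loci were taken by locus identifier, not by their values, from the 33602 loci of the deposited count tables. They are AT4G21980 (ATG8A), AT4G04620 (ATG8B), AT1G62040 (ATG8C), AT2G05630 (ATG8D), AT2G45170 (ATG8E), AT4G16520 (ATG8F), AT3G60640 (ATG8G), AT3G06420 (ATG8H), AT3G15580 (ATG8I) and AT4G24690 (NBR1). All 10 passed the filter on low counts, so none is missing from the comparisons.

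Autophagy wraps cytoplasm in a newly grown membrane and delivers it to the vacuole for breakdown. ATG8 is a small ubiquitin-like protein that ATG4 proteases cut behind a conserved glycine, after which a conjugation system (ATG7, ATG3 and the ATG12-ATG5-ATG16 complex) joins that glycine to a membrane lipid. Cargo receptors bind lipid-bound ATG8, and NBR1 is the receptor for ubiquitinated and aggregated proteins, with which it is itself degraded. In Arabidopsis, NBR1 is known for the clearance of proteins damaged by heat. Transcript levels, measured here, do not show how much autophagy takes place.

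Leaf RNA was sequenced from seedlings of the wild-type accession Col-0, with no transgene, at 11 time points in 2 batches. The T1 plants were sampled at dawn on day 12 at 22 °C. The acclimation treatment then raised the chamber gradually and was sampled at 3 h (T2, 38 °C), at 6 h on reaching 45 °C (T3) and at 7.5 h, at the end of 90 min at 45 °C (T4). Acclimated plants returned to 22 °C were sampled on day 14 (T5) and day 16 (T6), given a sudden shock of 90 min at 45 °C on day 16 (T7) and left for 2 days at 22 °C (T8). Plants without acclimation were sampled on day 16 before the shock (T9), at its end (T10) and 2 days later (T11). T7 and T8 are placed here by their temperature labels (45 and 22 °C), whereas the protocol text puts T7 before the shock and T8 at its end, so each statement on T7 or T8 rests on those labels. All leaf tissue of a plate of seedlings was pooled and divided between tubes. Each plate gave 2 libraries, except the T3 plate of batch 1, which gave 1. Because of the pooling the plate is the replicate, with 1 plate from either batch at a time point (n = 2). Only 2 plates stand behind each mean and its SD. Standard errors and p-values come from 1 fit of all 22 plates, which share an estimate of the spread at each locus. They therefore do not measure the spread of the compared plates alone. In such bulk tissue, fewer cells of a type and less RNA per cell cannot be told apart.

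The 43 libraries held 6355953 to 21304864 gene counts each. Levels are given as CPM scaled by the trimmed mean of M-values (TMM-CPM), and as TMM-CPM per kb of exon where loci are compared with one another. The TMM factors were 0.362 to 0.529 in the T3 and T4 plates and 0.785 to 1.64 in all others. This scaling therefore decides much of the direction at T3 and T4: scaled by library size alone, the median log2 change of all loci from T9 to T4 moved from -0.30 to -2.02. The 5 leaf markers summed to 5502 to 127700 TMM-CPM, the 5 root markers to 154 to 1065 and the 3 shoot apex markers to 2.53 to 29.6. No marker was at 0 counts in all plates.

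The 9 ATG8 coding ends are shown because they separate the family by the step that ATG4 performs. Each line gives the last 36 bases of the longest coding sequence in the RefSeq annotation of TAIR10.1, 5′ to 3′, with the codon of the conserved glycine in capitals and the stop codon at the end.
ATG8A: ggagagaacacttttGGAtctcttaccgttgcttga
ATG8B: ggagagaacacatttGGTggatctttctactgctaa
ATG8C: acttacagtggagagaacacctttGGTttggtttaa
ATG8D: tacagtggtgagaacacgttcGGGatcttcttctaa
ATG8E: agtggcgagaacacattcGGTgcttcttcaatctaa
ATG8F: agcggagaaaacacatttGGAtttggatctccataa
ATG8G: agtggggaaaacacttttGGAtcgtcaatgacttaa
ATG8H: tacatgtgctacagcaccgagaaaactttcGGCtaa
ATG8I: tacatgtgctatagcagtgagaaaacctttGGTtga

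In ATG8H (chr3:1955219-1955254, minus strand) and ATG8I (chr3:5274075-5274110, minus strand) the glycine codon stands directly before the stop codon, with 0 residues after it. In the other 7 loci 2 to 5 residues follow the glycine, 5 in ATG8A (chr4:11656774-11656809, plus strand) and ATG8B, 4 in ATG8E, ATG8F and ATG8G, 3 in ATG8D and 2 in ATG8C. Identity between the coding sequences ranged from 56.3% for ATG8G and ATG8I to 84.5% for ATG8A and ATG8B. No 50-base window within an exon of the 10 loci had an exact match elsewhere in the genome. Matches with mismatches and reads across exon junctions were not examined. An opposite-strand gene overlaps ATG8A by 27 bases, ATG8I by 183 bases and NBR1 by 101 bases. Whether counting used the strand is not stated, so reads from these overlaps cannot be assigned to 1 strand.

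At T1 the loci differed widely in level per length. ATG8F led at 48.9 ± 8.3 TMM-CPM per kb (SD, n = 2), followed by NBR1 at 43.7 ± 0.90 and ATG8E at 37.3 ± 6.7, and these neighbours lay within their spreads of one another. ATG8C (17.7 ± 1.7), ATG8A (16.2 ± 0.46) and ATG8I (13.0 ± 3.2) followed, and ATG8H (9.97 ± 1.3), ATG8D (9.75 ± 1.8), ATG8B (8.03 ± 0.53) and ATG8G (4.51 ± 0.42) were lowest. At T4 the order had changed. ATG8A led at 136.8 ± 66.2 TMM-CPM per kb, and ATG8H at 53.4 ± 21.7 followed ATG8E (76.5 ± 62.4) and NBR1 (69.7 ± 3.6) and preceded ATG8F (47.4 ± 9.4). The spreads of ATG8H and each of these 3 overlapped, while those of NBR1 and ATG8F did not. Over the 11 time point means, ATG8E had the widest range, 11.7-fold from T5 to T4, followed by ATG8H with 9.30-fold and ATG8A with 8.57-fold, and ATG8I the narrowest with 1.86-fold.

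**Figure D1:**
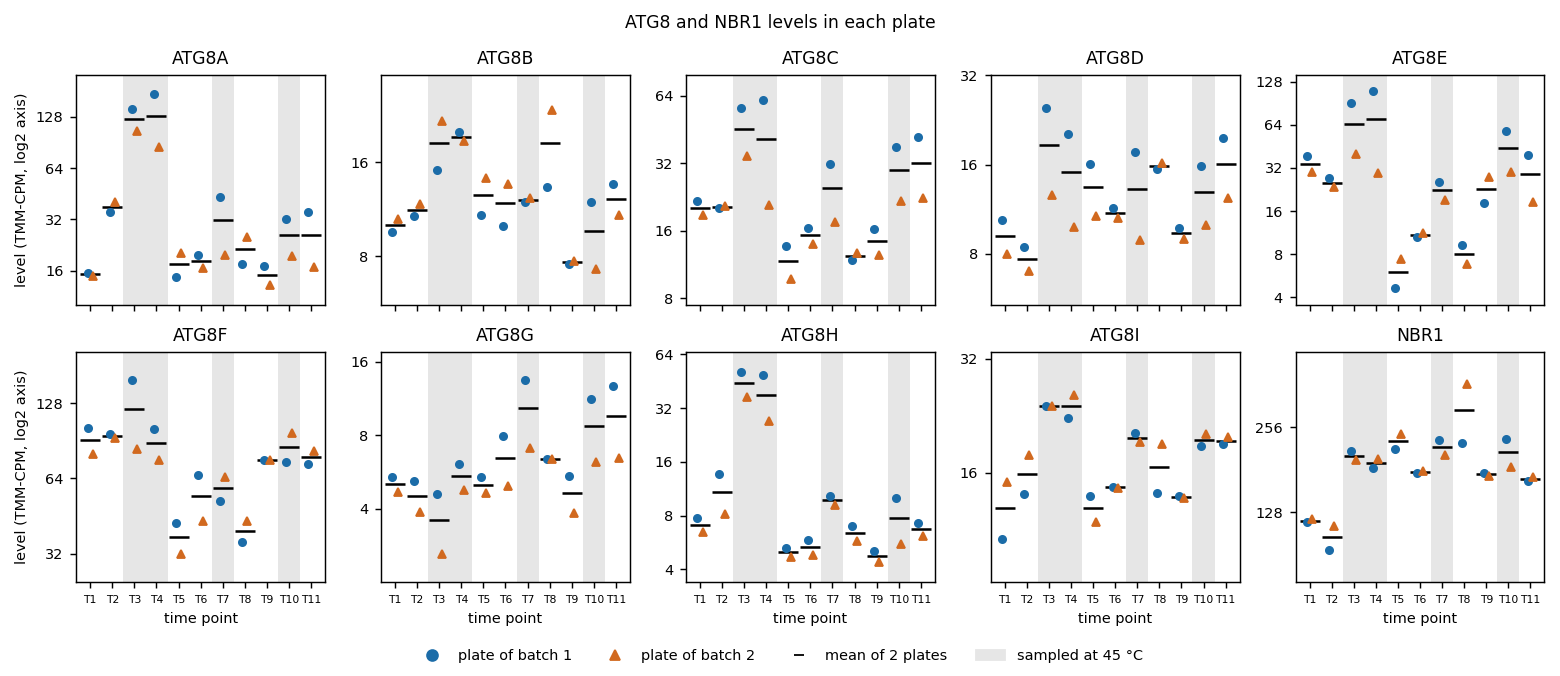
Level of each of the 10 loci in every plate (TMM-CPM, log2 axis, own range per panel) against time point; circles are batch 1, triangles batch 2, short bars the mean of 2 plates, and grey bands mark sampling at 45 °C. ATG8A and ATG8H stood highest at T3 and T4 in both batches, while NBR1 reached its highest mean at T8.

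ATG8A rose the most during acclimation. It measured 15.6 and 15.0 TMM-CPM in the T1 plates of batch 1 and batch 2, 35.4 and 40.4 at T2, 141.7 and 105.3 at T3, and 173.5 and 85.0 at T4. Both plates of T3 and of T4 were above every other plate of the series. ATG8A rose by 2.99 ± 0.41 (log2 change ± SE) from T1 to T3 and by 3.02 ± 0.41 from T1 to T4, an 8.11-fold difference (adjusted p = 9.33e-05 and 8.22e-05, edgeR quasi-likelihood test). Against T9, which was sampled at the same hour of the day as T4 but on day 16, it was 3.06 ± 0.41 higher (adjusted p = 7.32e-05). At T2 the difference from T1 was 1.32 ± 0.39 (adjusted p = 0.0972), with both T2 plates above both T1 plates.

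ATG8H followed the same course at a lower level. It measured 7.76 and 6.44 TMM-CPM at T1, 13.7 and 8.13 at T2, 51.0 and 37.1 at T3, and 48.9 and 27.1 at T4, and the plates of T3 and T4 again stood above all others. The tubes of the T3 plate of batch 2 differed widely for ATG8H, at 28.2 and 6.11 CPM scaled by library size. Those of the T1 plate of batch 2 were at 10.7 and 5.96, so on this scale the second tubes were close. ATG8H rose by 2.62 ± 0.25 to T3 and by 2.38 ± 0.25 to T4 (adjusted p = 5.99e-06 and 1.02e-05), and T4 exceeded T9 by 2.96 ± 0.25 (adjusted p = 3.48e-06). Both loci kept these calls with each compared plate left out in turn. With library size scaling their changes were smaller. ATG8A was then 1.41 higher at T3 and 1.15 at T4 than at T1 and still passed (adjusted p = 0.0021 and 0.00663), and ATG8H passed at T3 with 1.03 (adjusted p = 0.00446) but not at T4 with 0.51 (adjusted p = 0.105).

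T1 was sampled at lights on and T3 and T4 were sampled 6 and 7.5 h later. Their comparisons with T1 therefore differ in time of day as well as in heat. No unheated plants were sampled at the hour of T3. In all, 7 of the 10 loci rose from T1 to T3, against 18.3% of the 20980 loci tested that did so. From T1 to T4 the count was 6 of 10, against 18.8% of all loci, and from T9 to T4 it was 6 of 10, against 18.7%. With 1 plate left out these counts were 2 to 5, 2 to 5 and 4 to 5. The lowest was 2 in both comparisons with T1, without the T1 plate of batch 1. The count for T3 was 4 without the T3 plate of batch 1, and that for T4 was 3 without the T1 plate of batch 2 and 3 without the T4 plate of batch 1. Apart from ATG8A and ATG8H, which remained positive, every one of these loci turned to a negative change with library size scaling. The median of the 10 changes from T9 to T4 was 1.07 beside -0.30 over all loci. Markers moved in the same comparison. The leaf markers summed to 38100 and 35540 TMM-CPM at T9 and to 127700 and 96300 at T4, with 3 of 5 called higher and a median change of 1.85. The root markers summed to 322 and 303 at T9 and to 450 and 449 at T4, with 1 of 5 called lower and a median change of -6.37. The TMM factors were 1.35 and 1.35 in the T9 plates and 0.362 and 0.448 in the T4 plates. The direction of both sums depends on this scaling, so the sums do not show that leaf or root RNA increased. The part of the markers in the result was not tested.

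**Figure D2:**
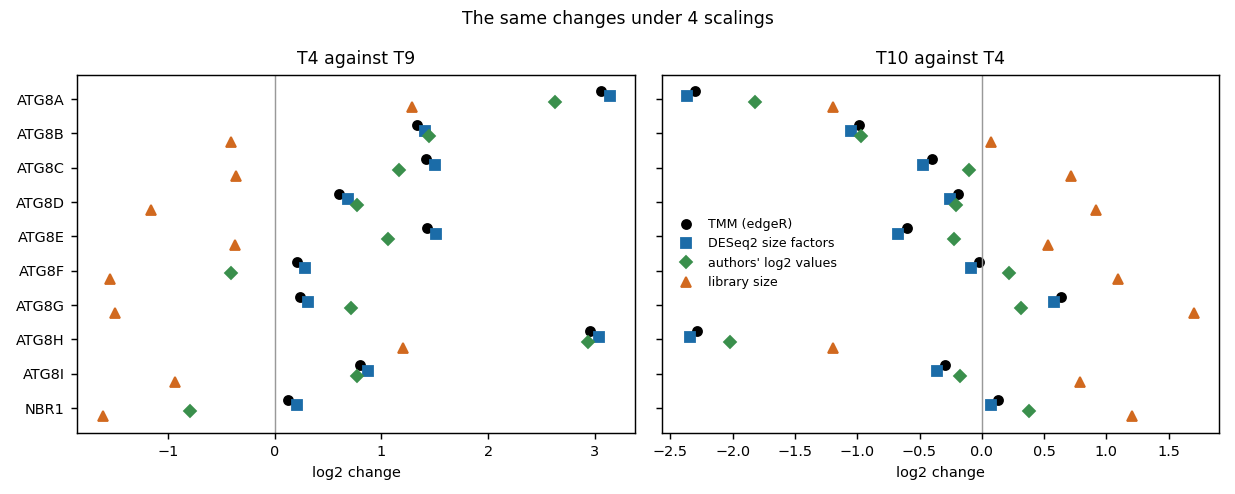
The log2 change of each locus from T9 to T4 (left) and from T4 to T10 (right) under 4 scalings: TMM in edgeR, DESeq2 size factors, the authors' log2 values and library size. ATG8A and ATG8H lie on 1 side of 0 in both panels under all 4 scalings, at 3.06 and 2.96 with TMM in the left panel.

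Among the other members with residues after the glycine, ATG8C measured 21.7 and 18.8 TMM-CPM at T1, 56.3 and 34.5 at T3, and 61.3 and 20.9 at T4. The batch 2 plate of T4 lay within the range of the T1 plates. ATG8C was 1.42 ± 0.33 higher at T4 than at T9 (adjusted p = 0.00347), and -0.36 under library size scaling. Without the T4 plate of batch 1 the change was 0.78 and did not pass. ATG8B, which measured 9.60 and 10.5 TMM-CPM at T1, 7.57 and 7.73 at T9 and 19.9 and 18.7 at T4, was 1.33 ± 0.31 higher at T4 than at T9 (adjusted p = 0.00342), and -0.41 under library size scaling. Its 2 plates agreed more closely than those of ATG8C.

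ATG8E measured 38.4 and 29.8 TMM-CPM at T1, 90.8 and 39.7 at T3, 110.4 and 29.6 at T4, and 18.1 and 27.7 at T9. The batches parted here, with the T4 plate of batch 1 far above the T9 plates and that of batch 2 just above them. The change from T9 to T4 was 1.42 ± 0.49 (adjusted p = 0.0294), with 2.09 as the highest and 0.49 as the lowest value when 1 plate was left out, the latter without the T4 plate of batch 1. It was -0.37 under library size scaling. ATG8D measured 10.4 and 8.01 TMM-CPM at T1, 24.8 and 12.6 at T3, and passed at T3 only, with 0.97 ± 0.29 (adjusted p = 0.0152) and -0.63 under library size scaling.

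ATG8F and ATG8G passed at neither T3 nor T4. ATG8F, the leading locus at T1, measured 102.0 and 80.2 TMM-CPM at T1, 157.8 and 83.5 at T3, and 100.7 and 75.9 at T4, with overlapping plates at each step. Its change from T1 to T4 was -0.05 ± 0.30 (adjusted p = 0.913). ATG8G, the least abundant locus, measured 5.37 and 4.70 TMM-CPM at T1, 4.60 and 2.61 at T3 and 6.09 and 4.77 at T4, a change of 0.10 ± 0.30 from T1 to T4 (adjusted p = 0.81). Under library size scaling both fell to T4, by 1.92 and 1.73 on the log2 scale (adjusted p = 0.000258 and 0.00019).

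ATG8I shares the exposed glycine with ATG8H but moved less. It measured 10.7 and 15.1 TMM-CPM at T1, 24.1 and 23.9 at T3, and 22.3 and 25.7 at T4. The T1 plates lay below those of T3 and T4, and the T3 plates lay within the range of T4. Its change was 0.90 ± 0.22 at T4 (adjusted p = 0.00434), and -0.93 under library size scaling.

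NBR1 measured 118.1 and 121.6 TMM-CPM at T1, 94.5 and 114.5 at T2, 210.2 and 195.8 at T3, and 184.3 and 198.2 at T4. Both later pairs of plates stood above the T1 plates. The change was 0.76 ± 0.25 at T3 and 0.67 ± 0.25 at T4 (adjusted p = 0.023 and 0.0391). Both calls were lost when any 1 of the 4 plates was left out, with changes of 0.67 to 0.85 at T3 and 0.64 to 0.72 at T4. The sign depended on the scaling: under library size scaling the changes were -0.84 and -1.18, and with the authors' log2 values -0.22 and -0.31. Against T9, whose plates measured 176.9 and 172.7 TMM-CPM, T4 differed by 0.13 ± 0.25 (adjusted p = 0.694). This change was negative under library size scaling and with the authors' log2 values, and it passed with the latter, as given at the end. From T1 to T9, without heat treatment, NBR1 differed by 0.55 ± 0.25 (adjusted p = 0.42, edgeR quasi-likelihood test), with the T9 plates above the T1 plates.

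Shares within the ATG8 family do not depend on how libraries are scaled against one another. Each share is the count per kb of exon of 1 locus as a percent of the sum over the 9 ATG8 loci in the same plate. ATG8A made up 9.33% and 10.4% of the family at T1, and its mean share went from 9.84 ± 0.73% (SD, n = 2) at T1 over 21.3 ± 2.5% at T2 and 30.8 ± 2.9% at T3 to 33.2 ± 0.63% at T4. ATG8H went from 6.02 ± 0.18% at T1 to 14.6 ± 1.2% at T3 and 13.2 ± 0.89% at T4. ATG8F went the other way, from 29.5 ± 2.0% at T1 to 12.4 ± 3.5% at T4, and ATG8G from 2.73 ± 0.02% to 0.74 ± 0.07% at T3. The T1 and T4 values of ATG8A, ATG8H and ATG8F did not overlap between plates. No test was run on shares.

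**Figure D3:**
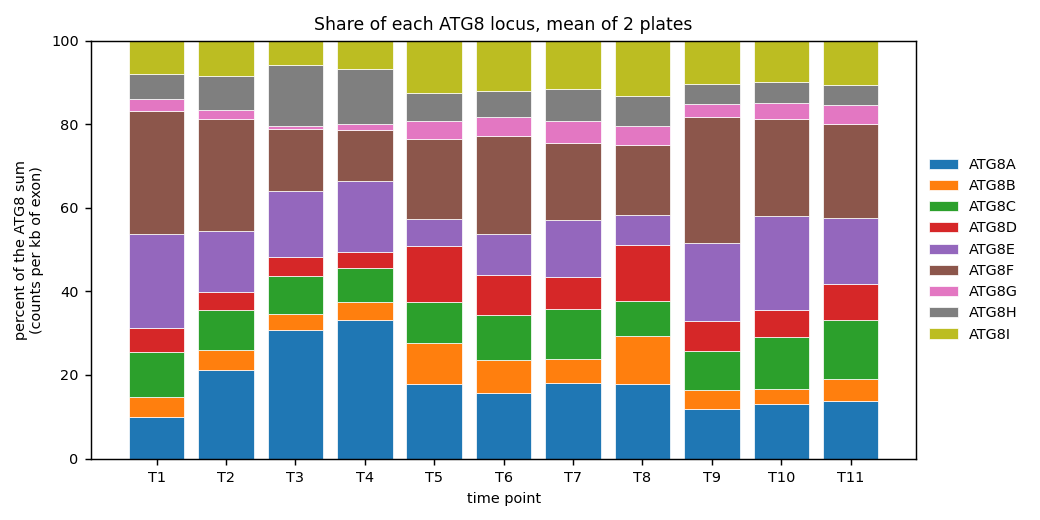
Mean share of each ATG8 locus in the family sum (percent of counts per kb of exon, 2 plates per time point) by time point, as stacked bars that start at 0. ATG8A takes 33.2% at T4 against 13.0% at T10, while ATG8F takes 12.4% and 23.2%.

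After the sudden shock of plants without acclimation no locus passed. The shock ended 9 h after lights on, while T9 and T6 were sampled at 7.5 h, so the time of day differs from T9 to T10 and from T6 to T7. From T9 to T10, 0 of the 10 loci passed, against 8.22% of all loci, and 4 of 10 had an unadjusted p under 0.05 in the edgeR test. All 10 changes were positive, from 0.19 for ATG8F to 1.02 for ATG8C, but only 5 under library size scaling and 8 with the authors' log2 values. Their median was 0.59 beside -0.04 over all loci, and -0.07 beside -0.69 under library size scaling. ATG8A measured 17.0 and 13.2 TMM-CPM at T9 and 32.1 and 19.7 at T10, a difference of 0.76 ± 0.38 (adjusted p = 0.217). ATG8C measured 16.3 and 12.4 TMM-CPM at T9 and 37.8 and 21.7 at T10 (1.02 ± 0.32, adjusted p = 0.0637). With DESeq2, ATG8C, ATG8G and ATG8H passed (adjusted p = 0.0301, 0.0272 and 0.0443).

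The slow and the sudden treatment both ended after 90 min at 45 °C, and T10 was compared with T4 directly, although the plants differed in age by 4 days and T10 was sampled 9 h and T4 7.5 h after lights on. Of the 10 loci 3 were lower at T10, against 12.1% of all loci. ATG8A was lower by 2.30 ± 0.40 (log2, adjusted p = 0.000861) and ATG8H by 2.29 ± 0.25 (adjusted p = 2.62e-05), and neither plate of T10 reached a plate of T4. ATG8B, at 11.9 and 7.28 TMM-CPM at T10, was lower by 0.99 ± 0.31 (adjusted p = 0.0272), but 0.08 higher under library size scaling. Under that scaling ATG8A and ATG8H were still lower, each with a log2 change of -1.20. In shares of the family, ATG8A made up 13.0 ± 1.6% and ATG8H 5.15 ± 0.99% at T10.

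**Figure D4:**
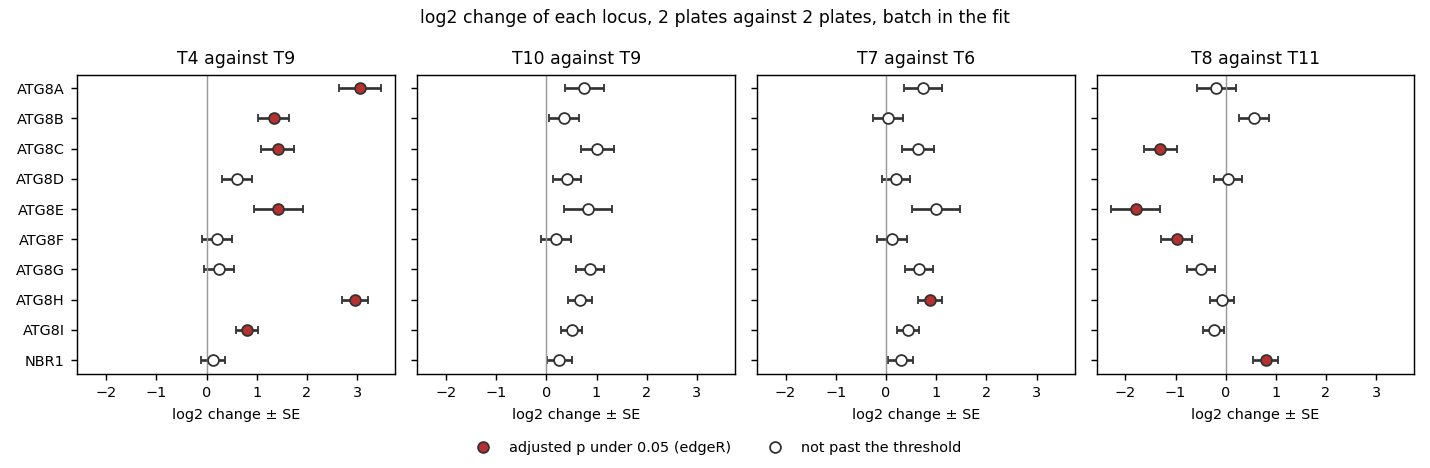
The log2 change of each locus with its standard error in 4 comparisons (2 plates against 2 plates, batch in the fit); filled points passed an adjusted p of 0.05 in edgeR's quasi-likelihood test. In T4 against T9, ATG8A and ATG8H lie near 3, while in T10 against T9 and T7 against T6 all 10 changes lie between 0.04 and 1.02 with this scaling.

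Acclimated plants were given the same shock on day 16. From T6 to T7 1 of the 10 loci passed, against 4.46% of all loci that rose. This was ATG8H, which measured 5.86 and 4.80 TMM-CPM at T6 and 10.3 and 9.11 at T7, with no overlap (0.88 ± 0.24, adjusted p = 0.039). The call was lost when any 1 of the 4 plates was left out, with changes of 0.74 to 1.00, and the change was 0.23 under library size scaling (adjusted p = 0.573). ATG8A measured 19.9 and 16.7 TMM-CPM at T6 and 43.4 and 19.8 at T7, where the batches differed widely (0.74 ± 0.39, adjusted p = 0.227). Between the shocked groups, T7 against T10, 0 of 10 loci passed, against 0.0572% of all loci, and 0 had an unadjusted p under 0.05. The difference between the acclimated and the non-acclimated shock response was also called for 0 of 10 loci and for 0% of all loci, with 0 unadjusted p under 0.05. It was -0.02 ± 0.54 for ATG8A, 0.21 ± 0.34 for ATG8H and 0.03 ± 0.35 for NBR1, and intervals of this width do not show that the responses were alike.

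From T1 to T9, both without heat treatment but different in age and in time of day, 0 of 10 loci passed, against 1.92% of all loci. From T1 to T2, sampled 3 h later in the day during the warming at 38 °C, 0 of 10 passed, against 2.75%. Of the unadjusted p, 2 were under 0.05 in each. Acclimated plants back at 22 °C were compared with T9 as well. T5 was sampled on day 14 and T9 on day 16, so these 2 time points also differ in age. For T5 against T9 the count was 0 of 10, against 0.443%, with 3 unadjusted p under 0.05, and for T6 against T9 it was 0 of 10, against 0.0191%, with 1. ATG8E had the lowest of its own time point means at T5, with 4.61 and 7.37 TMM-CPM in the plates. It was intermediate at T6, with 10.5 and 11.2, and the plates of T5 and T6 were below the T9 plates. The change from T9 to T5 was -1.93 ± 0.49 (adjusted p = 0.109, and 0.0122 with DESeq2). ATG8F was also below its T9 plates at T5, with 42.5 and 32.1 TMM-CPM (-1.03 ± 0.30, adjusted p = 0.18, and 0.0469 with DESeq2).

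Recovery was sampled on day 18, 2 days after the shock, whereas T9 and T6 were sampled on day 16. No plants without the shock were sampled on day 18, so age differs as well from T9 to T11 and from T6 to T8. Plants without acclimation (T11) differed from T9 in 1 of the 10 loci, against 3.02% of all loci that rose. ATG8G measured 5.46 and 3.84 TMM-CPM at T9 and 12.8 and 6.44 at T11 (1.00 ± 0.28, adjusted p = 0.0469). This call was lost without either T9 plate, without the T11 plate of batch 1 and under library size scaling, where the change stayed positive. ATG8C, at 41.9 and 22.5 TMM-CPM in T11, differed from T9 by 1.12 ± 0.32 (adjusted p = 0.0516). In acclimated plants, T8 against T6, 0 of 10 loci passed, against 4.64% of all loci, with 1 unadjusted p under 0.05, that of NBR1 (0.72 ± 0.25, adjusted p = 0.105, and 0.0238 with DESeq2).

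Set against each other on day 18, T8 and T11 differed in 4 of the 10 loci. NBR1 was higher in T8, against 13.9% of all loci that were higher, and ATG8C, ATG8E and ATG8F were lower, against 13.4% that were lower. NBR1 measured 225.0 and 363.2 TMM-CPM in T8 and 165.7 and 170.8 in T11, with no overlap (0.80 ± 0.25, adjusted p = 0.0277). ATG8C measured 11.8 and 12.7 TMM-CPM in T8 and 41.9 and 22.5 in T11 (-1.30 ± 0.33, adjusted p = 0.0104). ATG8E measured 9.22 and 6.82 TMM-CPM in T8 and 39.2 and 18.5 in T11 (-1.80 ± 0.49, adjusted p = 0.0159). ATG8F measured 35.5 and 43.2 TMM-CPM in T8 and 73.2 and 82.1 in T11 (-0.98 ± 0.30, adjusted p = 0.0285). Under library size scaling these 4 changes kept their signs, at 1.31, -0.78, -1.26 and -0.46, and that of ATG8F no longer passed (adjusted p = 0.325).

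The plates of these 4 loci did not overlap between T8 and T11, yet each call was lost without at least 2 of the 4 plates. Leaving out 1 plate gave 0.42 to 1.12 for NBR1, the lowest without the T8 plate of batch 2. The leaf markers summed to 5502 and 12440 TMM-CPM in T8 and to 43160 and 41420 in T11, and the root markers to 554 and 762 against 159 and 179. Their part in the result was not tested. The difference of the 2 recovery responses, T8 minus T6 against T11 minus T9, was called for 0 of 10 loci, against 1.46% of all loci, with 3 unadjusted p under 0.05. It was -1.40 ± 0.46 for ATG8C (adjusted p = 0.103), -0.96 ± 0.40 for ATG8G (adjusted p = 0.175) and 0.77 ± 0.35 for NBR1 (adjusted p = 0.206).

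The ratio of NBR1 to the ATG8 loci within a plate needs no scaling between libraries, but it does depend on the tubes. In batch 2 the second tubes had medians of 55.1% to 91.1% of the first for the ATG8 loci and 108% for NBR1. This raises the ratio in that batch. The NBR1 level per kb was 24.3% and 28.9% of the ATG8 sum in the T1 plates and 12.3% and 26.3% at T4. It was 72.9% and 87.7% at T5, 71.4% and 96.3% at T8, 47.8% and 46.8% at T9, and 26.4% and 39.5% at T11. The plates of T5 and T8 stood above those of every other time point, and the T8 plates above the T11 plates by a wide gap. The ATG8 sum was 104 ± 4.8 TMM-CPM per kb at T5 and 430 ± 129 at T3, its lowest and highest means.

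**Figure D5:**
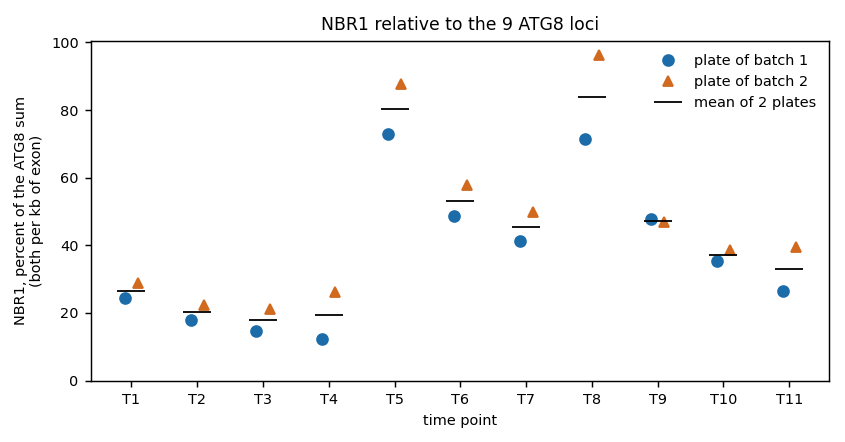
NBR1 level as a percent of the summed level of the 9 ATG8 loci (both per kb of exon) in each plate, by time point; circles are batch 1, triangles batch 2 and short bars the mean of 2 plates. The mean lies between 17.9% at T3 and 83.9% at T8, and the T5 and T8 plates lie above all others.

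The members resembled one another to different degrees across the 22 plates, on log2 TMM-CPM with the mean of each batch removed. ATG8A and ATG8H had the highest Pearson r of the 45 pairs, 0.947, followed by ATG8C and ATG8E with 0.874, and NBR1 and ATG8F had the lowest, -0.522. The plates share time points and scaling, so these values are descriptions. Among 6418 named loci with sufficient level, those most like NBR1 were ARD1 (r = 0.865), PMH2 (0.860), IMPA-2 (0.854), SCPL49 (0.852) and PDC2 (0.852). Those most like ATG8E were ATS2 (r = 0.946), GBF1 (0.939), VTI1B (0.921), NF-YC1 (0.919) and SKL1 (0.919).

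The 300 bases before the annotated start of ATG8A and ATG8H are shown because these loci moved together. The sequences are from TAIR10.1 as given by RefSeq, 5′ to 3′ on the gene's strand, with matches to TGACG and to a heat shock element pair in capitals.
ATG8A, chr4:11655262-11655561, plus strand: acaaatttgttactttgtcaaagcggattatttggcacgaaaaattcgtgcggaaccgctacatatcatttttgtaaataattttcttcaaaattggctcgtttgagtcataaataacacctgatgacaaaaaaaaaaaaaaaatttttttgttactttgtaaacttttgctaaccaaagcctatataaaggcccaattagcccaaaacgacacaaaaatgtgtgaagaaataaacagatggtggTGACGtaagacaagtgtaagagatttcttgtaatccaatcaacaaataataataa
ATG8H, chr3:1956398-1956697, minus strand: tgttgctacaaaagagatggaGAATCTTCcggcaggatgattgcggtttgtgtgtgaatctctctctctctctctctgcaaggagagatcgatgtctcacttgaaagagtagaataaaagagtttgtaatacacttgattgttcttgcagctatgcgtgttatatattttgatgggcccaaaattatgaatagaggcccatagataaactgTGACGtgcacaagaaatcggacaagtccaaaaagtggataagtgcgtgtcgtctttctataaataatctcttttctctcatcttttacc

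The pair GAANNTTC or TTCNNGAA, made of inverted GAA units of the kind bound by heat shock factors, was searched on both strands. The pair has its units facing each other in GAANNTTC and pointing apart in TTCNNGAA. It occurred in 1 of the 10 members, ATG8H, from 279 to 272 bases before the start, and in 19.3% of 27443 promoters of the same length. TGACG, the core bound by TGA factors, occurred on either strand in 6 of 10 (ATG8A, ATG8E, ATG8F, ATG8G, ATG8H and ATG8I), against 21.3% of promoters. In ATG8A it lay 55 to 51 bases and in ATG8H 89 to 85 bases before the start. TTGAC, the W-box core, occurred in 4 of 10 against 50.4%, CCGAC in 2 of 10 against 13.9%, and the G-box CACGTG in 0 of 10 against 7.09%. TGACG and TTGAC share the letters TGAC, and a match of each overlaps in ATG8I.

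The other genes of the pathway were taken as 5 lists of 47 genes in all, of which 46 were tested. From T1, 12 rose and 9 fell to T3 and 15 rose and 6 fell to T4 with TMM scaling, and 0 rose and 36 and 37 fell with library size scaling. Over all loci 18.3% rose and 23.4% fell to T3, and 18.8% and 23.5% to T4, with TMM. With library size scaling 3.63% rose and 71.1% fell to T3, and 3.38% and 76.4% to T4. From T9 to T4, 13 of 46 rose and 3 fell with TMM scaling, with a median log2 change of 0.07 beside -0.30 over all loci, whereas under library size scaling 0 rose and 37 fell. Over all loci 18.7% rose and 24.2% fell with TMM, and 3.38% and 74.8% with library size. ATG3, the enzyme that passes ATG8 to its lipid, rose by 1.69 ± 0.24 (adjusted p = 0.000126), FREE1, an endosomal sorting protein that takes part in autophagy, by 1.24 ± 0.23 (adjusted p = 0.000916) and ATG13A, a subunit of the kinase complex that starts autophagy, by 1.29 ± 0.25 (adjusted p = 0.00113). Under library size scaling these 3 changes were -0.05, -0.49 and -0.43. VPS34, the lipid kinase of the growing membrane, fell by 1.10 ± 0.32 and its partner VPS15 by 0.95 ± 0.36 (adjusted p = 0.0138 and 0.0462), and both were negative under each scaling, -2.82 and -2.68 with library size. Of the 9 other ATG8 partners and cargo receptors 4 rose and 0 fell, of the 9 genes of ATG8 processing and conjugation 3 rose and 0 fell, and of the 8 genes of the kinase complex 2 rose and 1 fell. The 15 genes tested of membrane delivery and lipid kinase gave 3 and 2, and the 5 upstream regulators 1 and 0.

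After the sudden shock, T10 against T9, 5 of 46 pathway genes rose and 0 fell with TMM scaling, and 0 rose and 5 fell with library size scaling. Over all loci 3.76% rose and 4.46% fell with TMM, and 1.43% and 20% with library size. ATG3 rose by 1.11 ± 0.24 (adjusted p = 0.0157), the nutrient-sensing kinase TOR by 0.91 ± 0.24 (adjusted p = 0.0357) and RPN10, a proteasome subunit that acts as a receptor for inactive proteasomes, by 1.14 ± 0.31 (adjusted p = 0.0376). Their changes under library size scaling were 0.46, 0.27 and 0.47, none past the threshold. From T6 to T7, 8 rose and 1 fell, led by ATG3 with 1.14 ± 0.24 (adjusted p = 0.0163), KIN10, a catalytic subunit of the energy-sensing kinase SnRK1, with 0.86 ± 0.22 (adjusted p = 0.0306) and TOR with 0.94 ± 0.24 (adjusted p = 0.0321). Under library size scaling 0 rose and 6 fell, and those 3 changes were 0.46, 0.17 and 0.26. Over all loci 4.46% rose and 3.78% fell with TMM, and 1.55% and 19.3% with library size.

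Between T10 and T4, 4 pathway genes were higher and 3 lower with TMM scaling, against 28 and 0 with library size. Over all loci 16.2% were higher and 12.1% lower with TMM, and 51.3% and 2.99% with library size, so neither TMM count exceeds its share. ATG9, the membrane protein of the seed vesicles, was lower by 1.15 ± 0.24 (adjusted p = 0.00263), ATG16 by 0.94 ± 0.23 (adjusted p = 0.00859) and ATG18A, a lipid-binding protein, by 1.04 ± 0.35 (adjusted p = 0.0379). VPS34 was higher by 1.44 ± 0.33 (adjusted p = 0.00476), C53, a receptor for endoplasmic reticulum, by 1.27 ± 0.36 (adjusted p = 0.0163) and the kinase ATG1B by 1.02 ± 0.32 (adjusted p = 0.0294), and these 3 were also higher with library size scaling, by 2.53, 2.39 and 2.08. The 3 lower genes were then at -0.08, 0.13 and 0.06. In T8 against T11, 2 were higher and 8 lower with TMM scaling and 10 and 0 with library size. Over all loci 13.9% were higher and 13.4% lower with TMM, and 25.6% and 5.85% with library size, and the 8 of 46 lower and 10 of 46 higher lie near those shares. The lower ones were led by ATG13A with -1.23 ± 0.25 (adjusted p = 0.00371), ATG3 with -0.98 ± 0.24 (adjusted p = 0.0095) and ATG101, another kinase complex subunit, with -1.10 ± 0.31 (adjusted p = 0.0182), which were -0.70, -0.46 and -0.58 with library size scaling. The higher ones were ATG9 with 0.78 ± 0.23 (adjusted p = 0.0233) and ATG18A with 1.02 ± 0.34 (adjusted p = 0.0402). The leaf and root marker sums given above move with this comparison too.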

How the data were processed

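Polyadenylated RNA from leaf tissue was sequenced in 43 libraries with a stranded kit, per the labels' protocols. Each deposited table gives raw read counts by locus. For the pipeline behind them, the submitters' processing notes name TAIR10, HTSeq, SAMtools, TopHat2 2.0.14 and Bowtie2 2.1.0.0. The 5 summary lines of each table name no gene and were left out. They held 11.7% to 45.3% of the records of a library. Their makeup differed by batch: records without alignment had a median of 8.9% in batch 1 and 0.235% in batch 2. For records with more than 1 alignment the medians were 5.2% and 19.7%. The latter kind was highest in the T10 and T11 libraries of batch 2, at 28.6% to 44.2%. The authors' deposited log2 values served as an alternative only, since how they were normalized is not stated. Of their per-sample columns 1 matched no sample and was not used.

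The tubes of a plate are technical repeats and were summed, which gave 22 plates. Some tubes of the same plate differed widely, as given at the end. The batch pairs plates across time points by label and is a term in the fit, so the blocked fit is the one reported. Changes were tested in edgeR 4.0.16 (R 4.3.3) with TMM scaling, a low-count filter (filterByExpr, count minimum 10), a joint model of the 22 plates that estimates each time point, the quasi-likelihood test and Benjamini-Hochberg adjustment over 20980 loci. The common biological coefficient of variation was 0.308, with 10 degrees of freedom left for error. The threshold was an adjusted p of 0.05. The fit was also run on simulated counts without a batch effect, in which a small part of the loci changed, as many up as down. Such counts lack the broad shift at T3 and T4, so that run cannot decide between the scalings. Alternatives used DESeq2 1.42.0, limma 3.58.1 for the log2 values, other scaling, no filter, no batch term, only the compared plates, and each compared plate left out. A plate whose partner is left out is assumed to vary like the other groups.

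The roles of T7, T8 and T9 follow the time point and temperature labels, because the protocol text puts T7 before the shock and T8 at its end and uses T9 for both kinds of plants. The 10 loci and the lists were chosen with earlier results of these data known. All 10 loci are named. Of the pathway lists, up to 3 genes per direction with the smallest p and at least 10 TMM-CPM in a compared time point are named. Promoters and coding ends were read from TAIR10.1 (RefSeq).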

Additional observations from a re-analysis of the deposited data

How the results depend on the processing

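The rises of ATG8A and ATG8H from T1 to T3, from T1 to T4 and from T9 to T4, and their lower level at T10 than at T4, kept their direction under every alternative run and passed in all but 1, ATG8H at T4 against T1 with library size scaling. The direction of the calls moved with library size scaling, which counts 8 loci (2 higher, 6 lower) for T3 against T1, 9 (1 and 8) for T4 against T1, 7 (2 and 5) for T4 against T9 and 8 (6 and 2) for T10 against T4, in place of 7, 6, 6 and 3. With it the changes from T1 to T3 were -0.71 for ATG8B, -0.47 for ATG8C, -0.63 for ATG8D, -1.24 for ATG8F, -0.67 for ATG8I and -0.84 for NBR1. From T1 to T4 they were -0.92 for ATG8B, -0.98 for ATG8C, -1.21 for ATG8D, -0.98 for ATG8E, -1.73 for ATG8G, -0.93 for ATG8I and -1.18 for NBR1. From T9 to T4 they were -0.41 for ATG8B, -0.36 for ATG8C, -1.15 for ATG8D, -0.37 for ATG8E, -1.54 for ATG8F, -1.49 for ATG8G, -0.94 for ATG8I and -1.61 for NBR1. From T4 to T10 they were 0.077 for ATG8B, 0.72 for ATG8C, 0.91 for ATG8D, 1.10 for ATG8F and 0.79 for ATG8I. With the authors' log2 values NBR1 was at -0.22 at T3 and -0.31 at T4 against T1, and at -0.80 at T4 against T9 (adjusted p = 0.0177). Library size scaling leaves the TMM factors out by construction.

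With DESeq2, 1 locus passed in T2 against T1 (ATG8A), 2 in T5 against T9, 3 in T10 against T9, 2 in T11 against T9 and 1 in T8 against T6. With the authors' values 2 passed in T10 against T9 and 2 in T11 against T9. With only the compared plates 1 passed in T2 against T1 (ATG8A), 1 in T6 against T9 and 1 in T7 against T10 (both ATG8E, lower), and 0 in T8 against T11. The single calls of T7 against T6 and of T11 against T9 went to 0 with library size scaling, no filter, no replicate block, only the compared plates, and without the second tubes of batch 2. The last alternative was added after seeing the data. In batch 2 those tubes were below the first tubes for ATG8C in 11 of 11 plates (median 67.6% of the first). The medians were lower still for ATG8H (55.1%), ATG8B (56.2%) and ATG8A (62.8%). They were 75.1% to 91.1% for the other ATG8 loci and 108% for NBR1. In batch 1 the medians of these loci lay between 86.5% and 100.9%. Over all loci of sufficient level, the median log2 ratio of second to first tube in batch 2 was -0.095 to -0.168, by class of exon length. The ATG8 loci ranged from -0.861 for ATG8H to -0.135 for ATG8G, and NBR1 was at 0.108. Over both batches, the higher tube exceeded the lower more than 2-fold in 19 of 210 pairs. The largest ratio was 4.73, for ATG8C at T3 in batch 2. With the second tubes of batch 2 left out, ATG8A rose by 3.06 and ATG8H by 3.14 from T9 to T4. NBR1 then no longer passed in T8 against T11. Without the replicate block (the batch term) 153 of the 160 single-locus results were on the same side of the threshold and 7 no longer passed.

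With 1 compared plate left out, the number of loci called ranged from 2 to 5 in T3 against T1 and in T4 against T1, from 0 to 1 in T11 against T9, from 0 to 2 in T8 against T11, and was 0 in T7 against T6. The cause of these shifts was not tested. Without division by exon length the shares were 7.51% at T1, 29.7% at T4 and 10.5% at T10 for ATG8A, 44.3%, 21.7% and 36.1% for ATG8F, and 3.46%, 8.89% and 3.12% for ATG8H. Only 2 plates per time point limit precision.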
